A study of Mus musculus with 4 samples.

Results

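Oligodendrocytes, the myelin-forming glia of the central nervous system, arise from neural progenitors through a cascade of transcription factors. Olig2 and Olig1, basic helix-loop-helix proteins, mark progenitors that can enter the lineage, and Olig2 is needed for its specification. Sox10, an HMG-box protein of the SoxE group, is switched on in committed precursors and later induces Myrf, which activates the myelin genes. Nkx2-2 and Nkx6-2 are homeodomain proteins that respond to Sonic hedgehog in the ventral neural tube, and Zfp488 is a zinc-finger corepressor that partners Olig2.

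The genes described are 8 transcription factors of this lineage, Olig1, Olig2, Sox10, Sox8, Nkx2-2, Nkx6-2, Myrf and Zfp488. They were taken by symbol from the 35857 genes that each library lists, and all 8 were found. The libraries came from glial progenitors formed by mouse neural stem cells (strain C57BL/6) of the embryonic cerebral cortex, 24 hr into induced glial differentiation. There were 2 control libraries, labelled wild type, and 2 Qk_KO libraries, labelled Qk-/-. Qk encodes Quaking, an RNA-binding protein best known for its part in myelination. The labels name no allele, no means of deleting Qk and no embryonic age. They also do not say that replicates are independent cultures, so p-values measure only the spread between these libraries, which may be technical in part.

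Levels are in TPM, a length-corrected share of all transcripts from which read depth cannot be recovered. Where a pair of values is given for a group, replicate 1 comes first. Fabp7, a gene of radial glia, was between 2354 and 3144 TPM and Sox9, a factor of neural stem cells, between 48.1 and 64.1 TPM, so progenitor markers were present in every library. Qk stood at 208 and 215 TPM in the control and 36.1 and 43.7 TPM in the Qk_KO libraries, each on the side its label gives. Qk_KO replicate 1 stood apart from the other 3 libraries. It had the Y-linked transcript Eif2s3y at 35.4 TPM and Xist at 0.04 TPM, while the other 3 had Eif2s3y at 0 and Xist between 57.6 and 62.5 TPM. The Qk_KO replicates thus differed in sex-linked transcripts, so their spread is not technical alone. The results of the tested members, and the calls in the gene lists, are also described without Qk_KO replicate 1.

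Because Quaking binds RNA at the hexamers ACTAAC and ACTAAT (written as DNA), the longest protein-coding transcript of each member in GENCODE M21 was searched for them on the transcript strand. The members shown here carried a match and are printed with the hexamer in capitals, 5′ to 3′, in GRCm38.
Olig2, 3′ UTR, chr16:91227681-91227710, plus strand: ggaagtctaaaaACTAACtttccggtgtac
Sox8, 3′ UTR, chr17:25566304-25566333, minus strand: agagcctccccaACTAACctgcttaggttc
Zfp488, across the end of the 5′ UTR and the start of the coding sequence, chr14:33971191-33971220, minus strand: aaagccctgtagACTAATggctgctggaac

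These 3 of 8 transcripts held 1 hexamer each. The transcripts of Sox10 (2780 bases), Myrf (5674 bases), Olig1, Nkx2-2 and Nkx6-2 held none. Among 12302 tested genes with a protein-coding transcript, 46.7% held at least 1 hexamer, 34.8% held 1 or more in the 3′ UTR, and the density over all transcripts was 0.227 per kb. A match describes letters only, and no match says only that these letters were not in that transcript.

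The 8 factors fell into an abundant set and a set at lower levels. Olig1, Olig2 and Sox8 had between 317 and 546 TPM in all 4 libraries, and the other 5 were at most at 52.6 TPM. The order of the control means was Olig1 (477 TPM), Olig2 (458), Sox8 (384), Nkx2-2 (43.3), Sox10 (29.0), Nkx6-2 (8.48), Zfp488 (3.04) and Myrf (1.23). In Qk_KO it was Olig1 (519 TPM), Olig2 (435), Sox8 (373), Nkx2-2 (31.2), Nkx6-2 (6.27), Sox10 (4.96), Zfp488 (0.59) and Myrf (0.465). Within the control libraries the ranges of Olig1 and Olig2, of Olig2 and Sox8, and of Nkx2-2 and Sox10 overlapped, and the other neighbours were apart. Within Qk_KO the ranges of Olig2 and Sox8, of Nkx6-2 and Sox10, and of Zfp488 and Myrf overlapped, while the lower Olig1 value lay just above the higher Olig2 value. Compared within each single library, Olig1 was above Olig2, Olig2 above Sox8, Sox8 above Nkx2-2 and Nkx2-2 above Sox10. Between the groups, the Qk_KO range overlapped that of control for Olig1, Olig2, Sox8, Nkx2-2 and Nkx6-2. For Sox10, Zfp488 and Myrf, each Qk_KO value was lower than each control value.

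**Figure D1:**
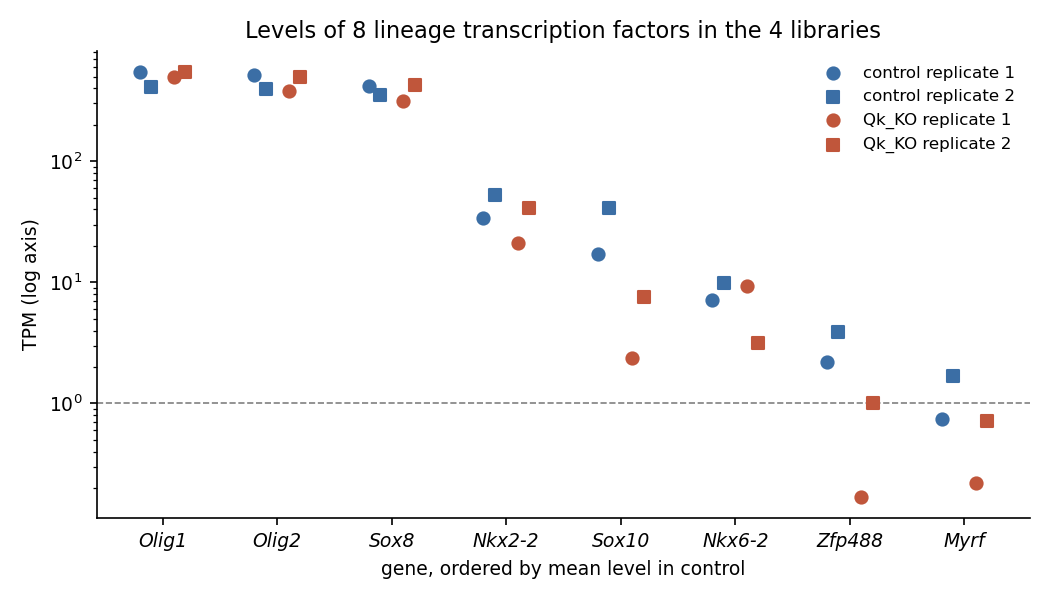
TPM of the 8 factors in each of the 4 libraries on a log axis, ordered by the control mean, with control in blue, Qk_KO in red, circles for replicate 1, squares for replicate 2 and a dashed line at 1 TPM. Olig1, Olig2 and Sox8 sit between 317 and 546 TPM in every library, while the Qk_KO points of Sox10, Zfp488 and Myrf lie below both control points.

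Differences between groups were tested with limma on log2(TPM + 1) across 13260 genes (mean over the libraries of 1 TPM or more), with Benjamini-Hochberg adjustment over all of them and a threshold of 0.05. The pseudocount of 1 makes fold changes of low genes too small. Of these genes 3.24% were called, 1.83% higher and 1.42% lower in Qk_KO. Of the 8 members 7 were tested, since Myrf had a mean of 0.845 TPM, and 0 were called higher or lower by limma, with 2 (Sox10 and Zfp488) at an unadjusted p under 0.05, which 28.4% of all tested genes reached. The median log2 fold change of the 7 was -0.50, beside 0.04 over all genes tested. Of the 7, 6 were below 0, beside 45.6% of all genes, with Olig2 and Sox8 near 0 at -0.07 and -0.06. Without Qk_KO replicate 1 the log2 fold changes of Olig2, Sox8 and Olig1 were 0.12, 0.16 and 0.21, and that of Nkx2-2 was -0.04. Sox10, Nkx6-2 and Zfp488 stayed lower, at -1.69, -1.17 and -0.97. The groups did not overlap for 2 of the 7 tested members, each lower in Qk_KO. Over all genes tested 61.1% did not overlap, and 27.5% did not overlap and were lower in Qk_KO.

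**Figure D2:**
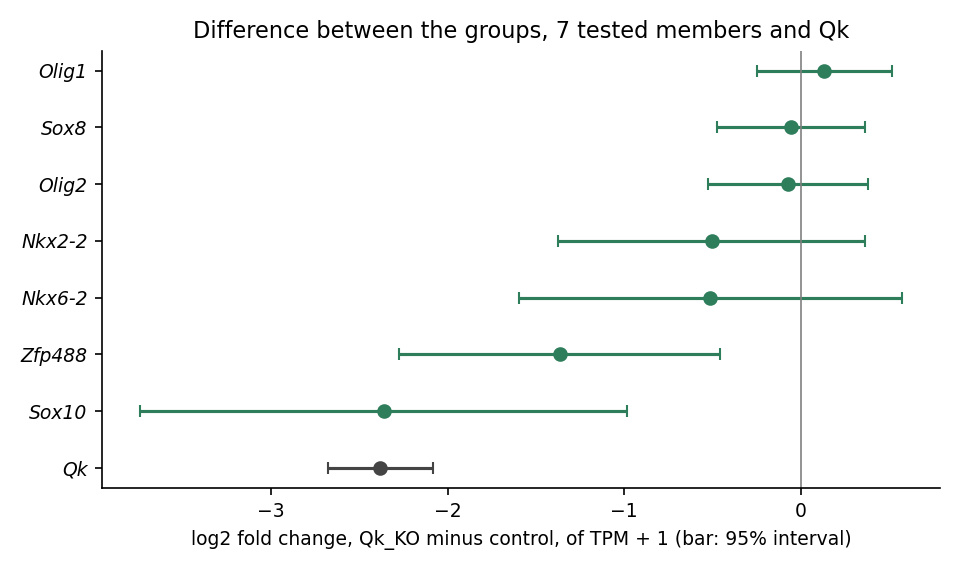
Log2 fold change of TPM + 1, Qk_KO minus control, for the 7 tested members (green) and Qk (grey), with 95% intervals from limma (n = 2 libraries per group). The intervals of Sox10 and Zfp488 lie below 0, although neither gene passed the adjusted threshold, and those of the other 5 members span 0.

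Olig2 (chromosome 16, 91225457 to 91228677, plus strand) was at 517 and 398 TPM in control and 377 and 493 TPM in Qk_KO. The groups overlapped, with 458 ± 84.4 against 435 ± 81.6 TPM (SD, n = 2 each). The log2 fold change was -0.07 with a 95% interval of -0.53 to 0.38 (adjusted p = 0.818, limma with Benjamini-Hochberg adjustment). Between 97.1% and 98.1% of the genes tested lay below Olig2 in each library. Olig1, its neighbour 41094 bases downstream, which promotes oligodendrocyte maturation, was at 544 and 410 TPM in control and at 493 and 546 TPM in Qk_KO. Its interval ran from -0.25 to 0.52 around a log2 fold change of 0.13 (adjusted p = 0.598, limma). Relative to Olig2 in the same library, Olig1 was at 105% and 103% in the controls and at 131% and 111% in Qk_KO.

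Of the homeodomain factors, Nkx2-2, which promotes oligodendrocyte differentiation, was at 34.01 and 52.6 TPM in control and 21.1 and 41.2 TPM in Qk_KO. Replicate 2 was the higher library in each group and the groups overlapped, with a log2 fold change of -0.50 (interval -1.37 to 0.37, adjusted p = 0.385, limma). Without Qk_KO replicate 1 it was -0.04. Nkx6-2, which is expressed in differentiating oligodendrocytes, was at 7.16 and 9.79 TPM in control and at 9.35 and 3.18 TPM in Qk_KO. Its Qk_KO replicates lay on opposite sides of the lower control value, so that the log2 fold change of -0.51 (interval -1.60 to 0.57, adjusted p = 0.476, limma) was -1.17 without Qk_KO replicate 1 and 0.14 without Qk_KO replicate 2.

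Sox10 (chromosome 15, 79154908 to 79165240, minus strand) was at 17.2 and 40.8 TPM in control and 2.38 and 7.55 TPM in Qk_KO. The groups did not overlap, and replicate 2 was the higher library in each. The means were 29.0 ± 16.7 and 4.96 ± 3.66 TPM (SD, n = 2), a 5.85-fold lower mean in Qk_KO. The log2 fold change was -2.36 (SE 0.55, interval -3.74 to -0.98), but it did not pass the test (adjusted p = 0.0701, limma with Benjamini-Hochberg adjustment). Only 27 of the 13260 genes tested, Sox10 included, had a log2 fold change as low or lower. Sox10 also varied more between replicates than nearly all genes. Its gap between the control replicates exceeded that of 99.4% of genes tested, and its gap between the Qk_KO replicates that of 99.2%. In bulk RNA fewer cells of a type and less RNA per cell cannot be told apart. Without Qk_KO replicate 1 the log2 fold change was -1.69 (adjusted p = 0.177, limma), and over the libraries left out in turn it ran from -3.03 to -1.69.

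Sox8, the SoxE relative of Sox10 with overlapping functions in the lineage, showed another pattern. It was at 415 and 354 TPM in control and at 317 and 428 TPM in Qk_KO. The groups overlapped and the log2 fold change was -0.06 (interval -0.48 to 0.36, adjusted p = 0.852, limma). Sox8 was above Sox10 in every library. The level of Sox10 relative to Olig2 was tested within libraries. Sox10 stood at 3.33% and 10.3% of the Olig2 level in control replicates 1 and 2, and at 0.631% and 1.53% in Qk_KO replicates 1 and 2. On the log2(TPM + 1) scale Sox10 minus Olig2 was -4.04 ± 1.11 in control and -6.33 ± 0.675 in Qk_KO (SD, n = 2), a difference of -2.29. The groups did not overlap, but the two-sided exact permutation test gave p = 0.33, the smallest that 2 against 2 libraries allow.

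**Figure D3:**
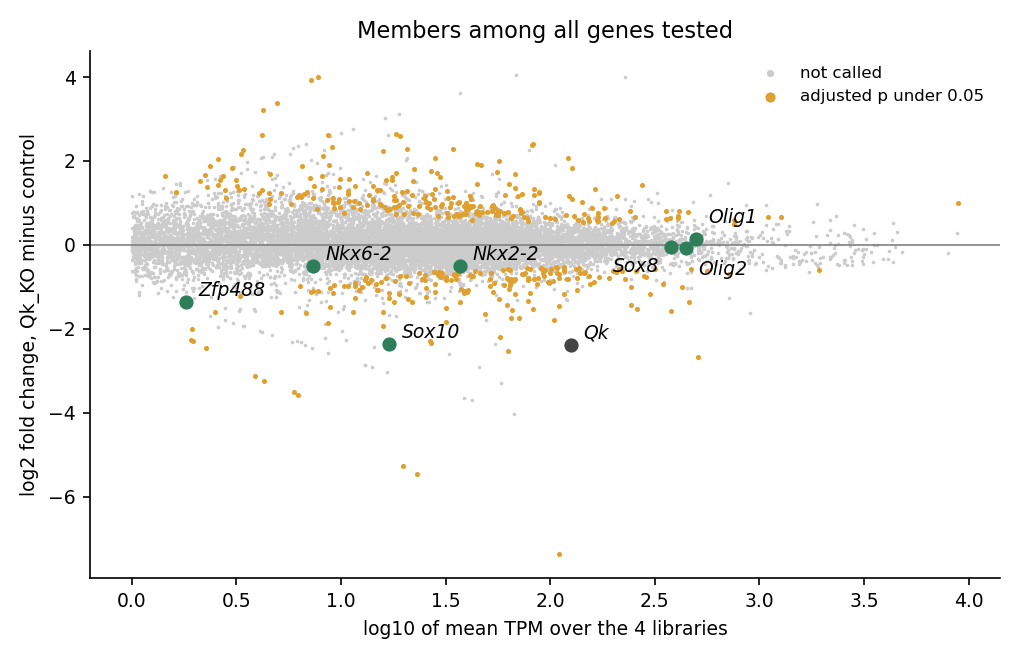
Log2 fold change (Qk_KO minus control, of TPM + 1) against the log10 of mean TPM for the 13260 genes tested, with called genes in orange, the 7 tested members in green and Qk in dark grey. Olig1, Olig2 and Sox8 lie near 0 at high levels, and Sox10 lies at -2.36, near Qk at -2.38.

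The factors of later steps were the scarcest. Zfp488 was at 2.20 and 3.87 TPM in control and 0.17 and 1.01 TPM in Qk_KO. The groups did not overlap, and replicate 2 was the higher library in each, as for Sox10. The log2 fold change of -1.36 (SE 0.36, interval -2.27 to -0.45) did not pass the test (adjusted p = 0.0878, limma). It was -2.46 with a pseudocount of 0.1 and -0.97 without Qk_KO replicate 1. Myrf was at 0.75 and 1.70 TPM in control and at 0.22 and 0.71 TPM in Qk_KO. The higher Qk_KO value lay just under the lower control value. Myrf was not tested in the main fit, and with no filter on low genes its log2 fold change was -0.59 (adjusted p = 0.364, limma).

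At 4 of the 8 members another annotated gene overlaps on the opposite strand, and since no source used here states the strand setting, reads from the overlap cannot be assigned. Nkx2-2 shares 10161 bases with Nkx2-2os, listed between 0.55 and 1.73 TPM, and 984 bases with 6430503K07Rik, listed between 0.33 and 2.48 TPM. Nkx6-2 shares 277 bases with Inpp5a (32.5 to 43.7 TPM), Sox8 shares 329 bases with 2810468N07Rik (56.6 to 94.0 TPM), and Olig1 shares 157 bases with Gm15966, not analysed here. Olig2, Sox10, Myrf and Zfp488 had no overlapping gene in GENCODE M21.

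The genes whose levels followed each member most closely were found by the root mean square distance of log2(TPM + 1), centred on its mean, over the 4 libraries. For Sox10 the nearest of the tested genes were Matn4, a matrilin of the extracellular matrix, Bcas1, a gene of newly forming oligodendrocytes, and Tgfb1, a cytokine, at distances of 0.0506, 0.128 and 0.196 log2 units. Matn4 was at 15.5 and 34.3 TPM in control and 1.78 and 6.17 TPM in Qk_KO. Bcas1 was at 5.96 and 16.0 TPM in control and 0.56 and 2.12 TPM in Qk_KO. The number of genes within 0.1 of Sox10 was 1. For Zfp488 the nearest were Ugt8a, the enzyme of galactocerebroside synthesis for myelin, Adra1d and Tmem100, at 0.072, 0.0883 and 0.0926. Ugt8a was at 7.48 and 13.6 TPM in control and at 2.18 and 4.32 TPM in Qk_KO.

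The number of genes within 0.1 differed widely among the other members. This number depends on how far a member's own level varies between the libraries. Olig2 had 120 genes within 0.1, led by Il4i1, Abcc10 and Arhgap33, Olig1 had 509, led by Zfp423, Ubash3b and Gpr85, and Sox8 had 261, with Samd12 and Dlg4 among the nearest. Nkx2-2 had 10, led by Chst11, Cd109 and Adra1b, and Nkx6-2 had 0, with Rpl34, Hist2h2ac and Rn7s1 nearest at 0.138 to 0.167. Among the members themselves, Olig2 and Sox8 were the closest pair (0.0563), and Sox10 was 1.43 from Olig1, the widest distance. Sox10 was nearest to Zfp488, at 0.576, while Zfp488 was nearer to Nkx2-2, at 0.433.

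**Figure D4:**
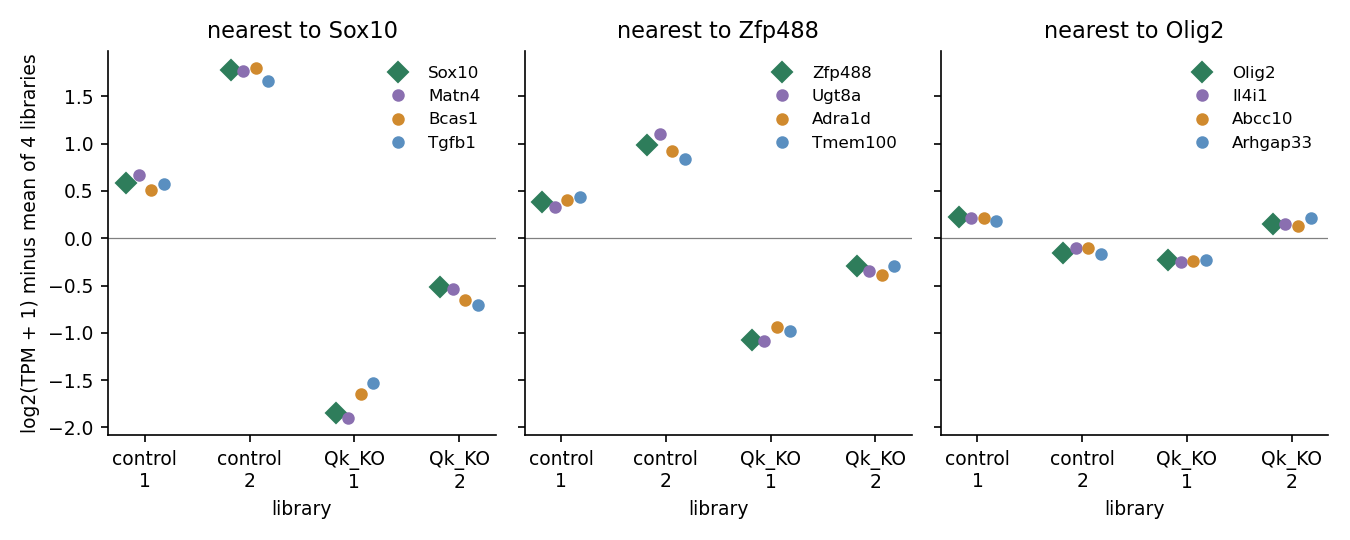
Log2(TPM + 1) minus its mean over the 4 libraries, for Sox10, Zfp488 and Olig2 (diamonds) and the 3 genes nearest to each (circles), by library. Around Sox10 all 4 genes are highest in control replicate 2 and lowest in Qk_KO replicate 1, while around Olig2 all values stay close to 0.

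Genes linked to these factors were read from lists, and their regulation by the factors was not tested. The list of 30 precursor genes linked to Olig and Sox10 factors had 24 tested. Of these 0 rose, 4 fell and 20 did not pass (limma), with a median log2 fold change of -0.24. Without overlap between the groups, 13 of the 24 were lower and 2 higher in Qk_KO, beside 27.5% and 33.6% of all genes tested. Pdgfra, the growth factor receptor of precursors, fell from 53.1 and 35.8 TPM in control to 5.37 and 12.1 TPM in Qk_KO, a log2 fold change of -2.29 (adjusted p = 0.0461, limma). Pdgfra was higher in control replicate 1, where Sox10 was the lower of the control values. Lhfpl3, the phosphatase gene Ptprz1 and the proteoglycan gene Bcan fell by 0.75, 0.63 and 0.61 on the log2 scale. Gpr17, a receptor of committed precursors, was at 1.78 and 7.86 TPM in control and 0.01 and 0.63 TPM in Qk_KO (adjusted p = 0.106, limma). The calls of these 4 genes were lost when any control library or Qk_KO replicate 1 was left out, at adjusted p of 0.107 to 0.316 by limma. Without Qk_KO replicate 2 only Pdgfra of these 4 was called. The list's median was -0.20 without Qk_KO replicate 1 and -0.55 without Qk_KO replicate 2. It was -0.28 without control replicate 1 and -0.33 without control replicate 2.

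Of 36 myelin and differentiation genes linked to Sox10 and Myrf, 19 were tested, 0 rose, 1 fell and 18 did not pass (limma), with a median of -0.51. Nkx6-2 is 1 of the 19, and the median is its own log2 fold change. With 1 library left out the median of the list ran from -0.63 to -0.37. In this list 15 genes stayed below 1 TPM in all libraries, among them Mag and Mobp, and Mog was listed at 0 in all 4. Enpp2, the secreted enzyme autotaxin, fell from 82.0 and 79.6 to 25.8 and 40.2 TPM, a log2 fold change of -1.30 (adjusted p = 0.0445, limma), a call lost without either control library (0.147 and 0.316) or without Qk_KO replicate 1 (0.0991). Mbp, the myelin basic protein gene, was at 11.04 and 47.3 TPM in control and 3.58 and 11.1 TPM in Qk_KO, with replicate 2 the higher in each group, as for Sox10 (adjusted p = 0.204, limma).

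**Figure D5:**
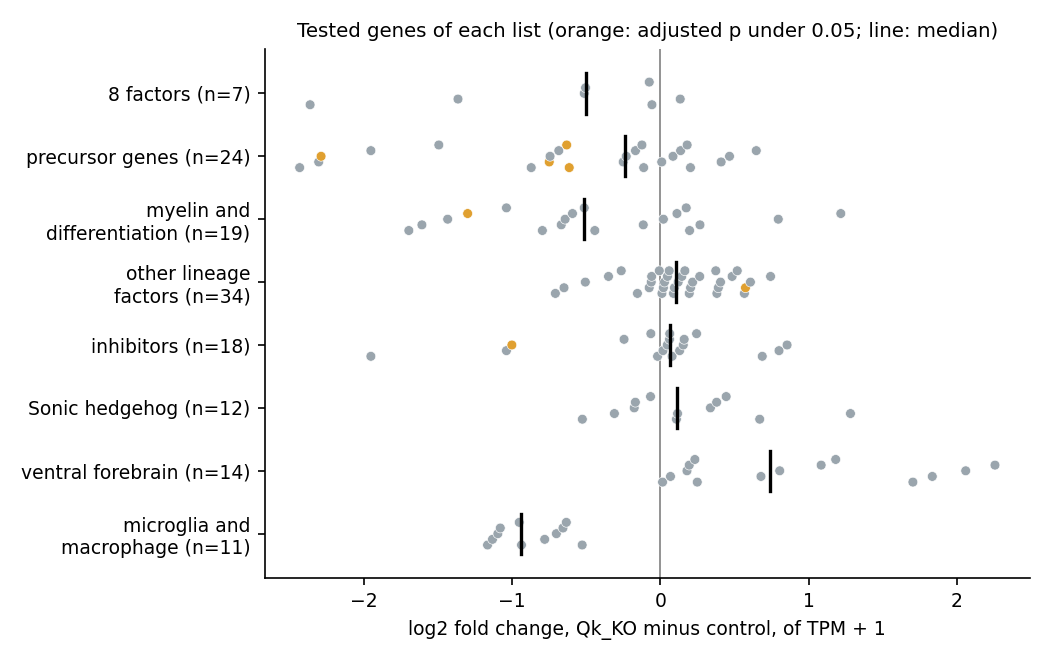
Log2 fold changes (Qk_KO minus control, of TPM + 1) of the tested genes in each list, with genes that passed the adjusted threshold in orange and a line at each median. The medians are -0.50 for the 7 tested factors, -0.24 for precursor genes, -0.51 for myelin genes and 0.11 for the other lineage factors. The median of the myelin genes is the value of Nkx6-2, which is also 1 of the 7 factors.

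Other regulators of the lineage were read against the 3.24% called over all genes. Among 34 tested genes of the other transcription factors and cofactors, 1 rose, 0 fell and 33 did not pass (limma), with a median of 0.11. Hdac1, a histone deacetylase used in oligodendrocyte differentiation, rose from 139 and 131 to 213 and 191 TPM (log2 fold change 0.57, adjusted p = 0.0493, limma). The call was lost without any one of the 4 libraries (0.0804 to 0.321), with median-ratio scaling (0.0519), quantile normalization (0.0524), limma's robust fit (0.0506), no trend (0.0911) and no filter (0.139). Sox9, the third SoxE gene, was at 64.1 and 48.1 TPM in control and 58.1 and 55.3 TPM in Qk_KO (adjusted p = 0.921, limma). Of 18 inhibitors of the programme, 0 rose, 1 fell and 17 did not pass, with a median of 0.06. The Notch ligand gene Jag1 fell from 18.8 and 15.5 to 8.28 and 7.78 TPM, a mean 2.13-fold lower (adjusted p = 0.0426, limma), a call lost without any one of the 4 libraries (0.093 to 0.295). Hes5, a Notch target that restrains the lineage, was at 146 and 126 TPM in control and 125 and 152 TPM in Qk_KO. Of the 18 inhibitors 4 were lower and 5 higher in Qk_KO without overlap, beside 27.5% and 33.6% of all genes tested. Id3, among the 5, was at 1842 and 1728 TPM in control and 3170 and 2608 TPM in Qk_KO (adjusted p = 0.0522, limma). Of 12 tested Sonic hedgehog pathway genes, which lie upstream of Olig2 and Nkx2-2, 0 were called by limma, with a median of 0.11, and Ptch1 and Smo, its receptor components, were between 37.7 and 96.4 TPM.

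Marker lists of other cells and regions were read beside these results. Of 14 tested ventral forebrain genes 0 were called by limma, with a median of 0.74 that was 0.20 without Qk_KO replicate 1. Dlx1, Dlx2 and Six3 were at 36.7, 76.0 and 30.8 TPM in Qk_KO replicate 1, against at most 2.03, 2.60 and 1.10 TPM in the other libraries. That library also held the lowest Sox10, Zfp488 and Myrf values, and any part of ventral identity in them was not tested. Of 10 tested dorsal forebrain genes 2 rose (Wnt7a and Pax6) and 1 fell (Wnt7b), with a median of -0.12. None of the 3 calls held without any one of the 4 libraries, and the median then ran from -0.55 to 0.21. Sox10 also marks Schwann cells and neural crest. Of that list's 20 genes 8 stayed below 1 TPM in all libraries, among them Foxd3. Of the 12 tested 0 were called (median -0.27, with Sox10 among them), and Fabp7 and Pmp22 were the most abundant. Ngfr was between 5.21 and 14.3 TPM. S100b, also on the astrocyte list, was at 5.04 and 18.2 TPM in control and 0.67 and 1.81 TPM in Qk_KO. The summed level of the list was 3105 and 3074 TPM in control and 2427 and 3217 TPM in Qk_KO, nearly all of it Fabp7, which radial glia also express.

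Among 15 tested astrocyte markers 1 rose (Aqp4), 2 fell (Slc1a3 and Slc4a4) and 12 did not pass (median -0.10), and among 15 tested neuron markers 3 rose (Ina, Celf4 and Snap25), 0 fell and 12 did not pass (median 0.36). These calls were lost without any one of the 4 libraries, except that Aqp4 was still called without Qk_KO replicate 2 (adjusted p = 0.0371, limma), and the neuron median then ran from 0.19 to 0.68. Summed neuron markers were at 924 and 688 TPM in control and 1256 and 1360 TPM in Qk_KO. Microglia and macrophage markers were lower in Qk_KO without passing the test. All 11 tested were lower in Qk_KO without overlap between the groups, beside 27.5% of all genes tested. Of the 11, 0 were called (median -0.94), with Tyrobp among the more abundant. The sum of the list was 87.2 and 78.5 TPM in control against 44.2 and 38.2 TPM in Qk_KO. Of the 16 genes of this list 4 stayed below 1 TPM in all libraries, among them P2ry12, at most at 0.04 TPM. Of 7 tested endothelial and mesenchymal markers 0 were called (median -0.07), with Acta2 and Col1a1 the most abundant. Acta2 was at 1289 and 1130 TPM in control and 3484 and 1604 TPM in Qk_KO (adjusted p = 0.148, limma). Of the 16 genes of this list 9 stayed below 1 TPM in all libraries. The part of other cells in the Sox10, Zfp488 and Myrf values was not tested.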

How the data were processed

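Poly(A)-selected RNA of glial progenitors gave 4 libraries, read on an Ion Proton instrument according to the labels' protocols. For each library the authors deposited gene-level TPM. The submitters' processing notes list STAR 2.4.1d, RSEM 1.3.0, mm10 and GRCm38.p4, and no source used here gives annotation, filters or strand setting.

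Values were taken as log2(TPM + 1). Genes averaging 1 TPM or more (13260) were fitted together for Qk_KO minus control with limma 3.58.1 (trend, two-sided) in R 4.3.3, adjusted by Benjamini-Hochberg over all of them. The fit was tested on simulated data. Positions and transcripts came from GENCODE M21 (GRCm38). Members and lists (261 entries, all matched) were chosen with earlier results of these data known. Named were Qk, all members, up to 4 called genes per list by size of change (or the 2 most abundant), overlapping genes and the 3 genes nearest to each member, leaving out predicted loci, and a few genes this rule names are not reported here. Dlx1, Dlx2, Six3, Eif2s3y, Xist, Gpr17, Mbp, Mag, Mobp, Mog, Foxd3, Ngfr, S100b, P2ry12, Sox9, Hes5 and Id3 were chosen after their values were seen. Alternatives were pseudocounts, filters, scalings, spread models, a replicate block and leaving out each library. Figures were drawn with matplotlib 3.10.9.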

Additional observations from a re-analysis of the deposited data

How the results depend on the processing

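The members called by limma stayed at 0 under every alternative but the replicate block. The count of all genes called, 430, was 0 with no filter (4327 at an unadjusted p under 0.05), 649 at a mean of at least 5 TPM, 41 without limma's trend, and 1 to 92 with 1 library left out. It was 801 with small RNA genes left out and 670 with the GC trend removed, both chosen after seeing the data. With the replicate number as a block it was 1278, and 2 members were called, Sox10 (adjusted p = 0.00636) and Zfp488 (0.0321). The labels say nothing of what a number shares, the deviations of same-numbered libraries correlated at 0.114, and 2 pairs are too few to show a pairing. Sox10 minus Olig2 ran from -3.08 to -1.5 with 1 library left out. Sox10, Zfp488 and Nkx2-2 had negative log2 fold changes under every alternative that tested them.

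Values that changed sign were all uncalled. With 1 library left out, log2 fold changes ran from -0.27 to 0.12 for Olig2, -0.0678 to 0.34 for Olig1, -1.17 to 0.14 for Nkx6-2 and -0.27 to 0.16 for Sox8. They also ran -0.34 to 0.0759 for Fabp7, -0.31 to 0.0904 for Il4i1, -0.29 to 0.0682 for Abcc10, -0.24 to 0.21 for Arhgap33, -0.0993 to 0.33 for Zfp423, -0.0757 to 0.31 for Ubash3b, -0.0564 to 0.32 for Gpr85, -0.99 to 0.10 for Adra1b, -1.12 to 0.12 for Rpl34, -1.069 to 0.11 for Rn7s1, -0.26 to 0.14 for Samd12 and -0.31 to 0.15 for Dlg4. With the GC trend removed Olig1 was at -0.0093, Smo was at -0.0171, Zfp423 was at -0.0132 and Samd12 was at 0.046. The cause was not tested. TPM keeps no depth, so the precision of the low values of Myrf and Zfp488 is unknown.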
